A study of Mus musculus with 24 samples.

Results

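Hepatoblastoma (HB), an embryonal tumour of the liver, was compared across all genes with normal liver of vehicle controls (vehicle_normal). The arrays were chosen by their titles, 6 for HB and 6 for vehicle_normal, which is 12 of the 24 arrays of the series. All tissue came from B6C3F1 mice, a hybrid strain used in carcinogenicity testing. The HB titles begin with BDCA, which the labels do not spell out. One protocol text is attached to every sample. It describes a 2-year bioassay of Ginkgo biloba extract by corn-oil gavage in mice of both sexes, and no sample is given a dose, sex, age or animal of its own. Tumour tissue and whatever the tumour-bearing mice had received can therefore not be told apart in this comparison. The remaining arrays, 6 of hepatocellular carcinoma beside the tumours (HCC) and 6 of non-tumour liver beside them (BDCA_nontumor), entered the same fit and helped to estimate the spread. Whether the arrays of a group stand for different animals is not stated in the labels. The p-values therefore describe the spread among these arrays, part of which may be technical.

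Each value is a MAS5 intensity, the brightness of a probe set on a scale on which every array has a 2% trimmed mean of 500. Differences are means of log2(intensity + 16), HB minus vehicle_normal, each with its standard error (SE), n = 6 and 6. A gene is called when its adjusted p in limma is under 0.05, and only called genes are said to have risen or fallen. Intensities depend on the probe as well as on the RNA, so levels are compared between arrays and not between genes. In bulk tissue, fewer cells of a type and less RNA per cell cannot be told apart.

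Of 14086 tested genes, 5239 rose and 3248 fell in HB, which is 37.2% and 23.1% and together 60.3%. In 37.6% of the genes the HB and vehicle_normal arrays did not overlap, with HB above in 21.5% and below in 16.1%. A called difference of at least 2-fold was present in 46.5% of the genes. The median difference over all tested genes was 0.34. The split depended on how the arrays were scaled: 61.7% of the calls were rises on the deposited scale, 49% after quantile normalization, 46.1% after centring each array on the median of the tested genes and 30.5% after centring on the median of all probe sets. Under those 3 scalings the median difference was -0.01, -0.03 and -0.4. The falls went deeper than the rises. A difference of 4 or more on the log2 scale was reached by 553 genes downwards (3.93%) and by 302 upwards (2.14%).

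**Figure D1:**
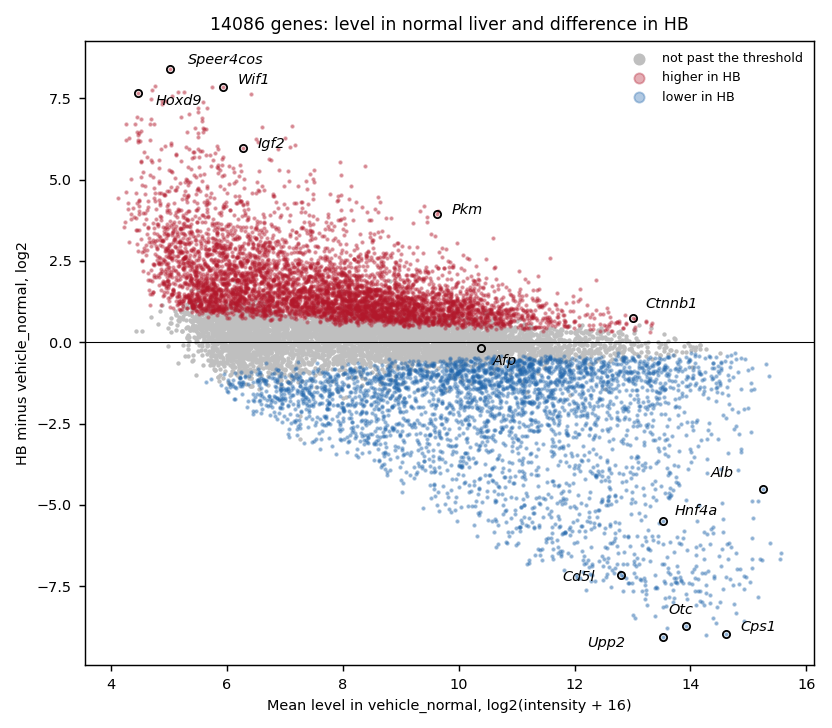
Each point is 1 of 14086 genes, with its mean log2(intensity + 16) in vehicle_normal on the x axis and its log2 difference, HB minus vehicle_normal, on the y axis. Red genes rose, blue genes fell and grey genes did not pass the threshold. The falls reach farther from 0 than the rises, with Cps1 and Upp2 among the lowest points.

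The labels were checked on 4 markers that had been chosen with results of these data known, so their values are a description. Wif1, a secreted protein that binds and blocks Wnt ligands, read 10848 to 19478 (median 13523) in HB and 35.9 to 53.3 (median 45.6) in vehicle_normal. Hoxd9, a homeobox transcription factor of the HoxD cluster, read 3843 to 5263 (median 4370.4) in HB and 2.35 to 9.85 (median 6.06) in vehicle_normal. Both were high on every HB array and near the floor of the scale on every vehicle_normal array, with differences of 7.85 ± 0.47 and 7.66 ± 0.30. Cps1, which makes carbamoyl phosphate in the entry step of the urea cycle, read 0.72 to 1234 (median 13.9) in HB and 18008 to 28588 (median 26275) in vehicle_normal. Otc, the next enzyme of that cycle, read 4.73 to 59.2 (median 21.4) in HB and 13379.8 to 17563 (median 15468) in vehicle_normal. Cps1 was lower by 8.97 ± 0.69 and Otc by 8.72 ± 0.54, with no overlap of the groups. All 18 tested defining markers of hepatocytes were called lower in HB, with a median difference of -6.92. The summed intensity of these markers was 328200 to 467100 on the vehicle_normal arrays, which bear out their liver label, and 77260, 55900 and at most 4072 on HB replicate 4, HB replicate 5 and the other HB arrays.

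The arrays of the 2 groups also differed in general measures. The median intensity was 164.8 ± 20.8 in HB and 92.5 ± 12.7 in vehicle_normal (SD, n = 6 each), and no split of the arrays gave a larger difference (exact permutation test, two-sided, adjusted p = 0.0036, smallest possible unadjusted p 0.00216). The log2 ratio of a gene's 3' probe set to its 5' probe set, which rises as RNA degrades, was taken from 4 control genes. It was lower in HB for Gapdh (1.37 ± 0.23 against 1.92 ± 0.19), pyruvate carboxylase (0.26 ± 1.61 against 2.64 ± 0.34) and the transferrin receptor (-0.74 ± 0.26 against 0.16 ± 0.42), with adjusted p of 0.0036, 0.0036 and 0.00541 in exact permutation tests. For Actb it was 0.25 ± 0.10 in HB and 0.14 ± 0.10 in vehicle_normal, in the opposite direction and past no threshold (exact permutation test, adjusted p = 0.0779). The ratio of pyruvate carboxylase ran from -2.17 to 2.04 over the HB arrays, and the pseudocount pulls the ratio of a dim gene towards 0. The part of RNA integrity in the differences below was not tested. Xist, the RNA that coats the inactive X chromosome of female cells, read above 1000 on 4 of 6 vehicle_normal arrays and on 0 of 6 HB arrays. It also read above 1000 on 1 BDCA_nontumor array. With all these arrays left out, 2 vehicle_normal arrays remained, and 3872 genes rose and 2522 fell.

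The 10 genes with the largest rises without overlap were all near the floor in normal liver, at most 157.5 on any vehicle_normal array, and at least 2778 on every HB array. They were Speer4cos (8.40), Fxyd6 (7.87), Ptn (7.86), Wif1, Prph (7.75), Spock2 (7.71), Pla2g2a (7.71), Hoxd9, Apcdd1 (7.64) and Slc14a1 (7.59). Fxyd6 encodes a regulator of the sodium pump, Ptn a heparin-binding growth factor, Prph a neuronal intermediate filament and Spock2 a matrix proteoglycan. Pla2g2a encodes a secreted phospholipase, Apcdd1 a membrane inhibitor of Wnt signalling and Slc14a1 a urea channel. Apcdd1 read 14584 to 26120.4 (median 15378) in HB and 11.5 to 149 (median 96.8) in vehicle_normal, which is 199.5-fold on the scale with the pseudocount. The 10 largest falls were Upp2 (-9.06), Cyp3a25 (-9.00), Cps1, Cyp2f2 (-8.78), Otc, Mup3 (-8.63), Hamp2 (-8.58), Mat1a (-8.49), Sult2a8 (-8.49) and Cyp2a12 (-8.42). Each is a gene of liver metabolism or secretion, and each read at least 5794 on every vehicle_normal array. Upp2, a uridine phosphorylase of the liver, read 0.25 to 37.0 (median 2.73) in HB and 9044 to 19515 (median 11230.1) in vehicle_normal. In 2300 called genes the median of 1 group lay below 66.3, the level of the filter, so the size of such a difference depends on the pseudocount of 16. Adjusted p lay between 2.55e-16 and 1.57e-11 for the 10 rises and between 7.18e-14 and 1.82e-07 for the 10 falls (limma).

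**Figure D2:**
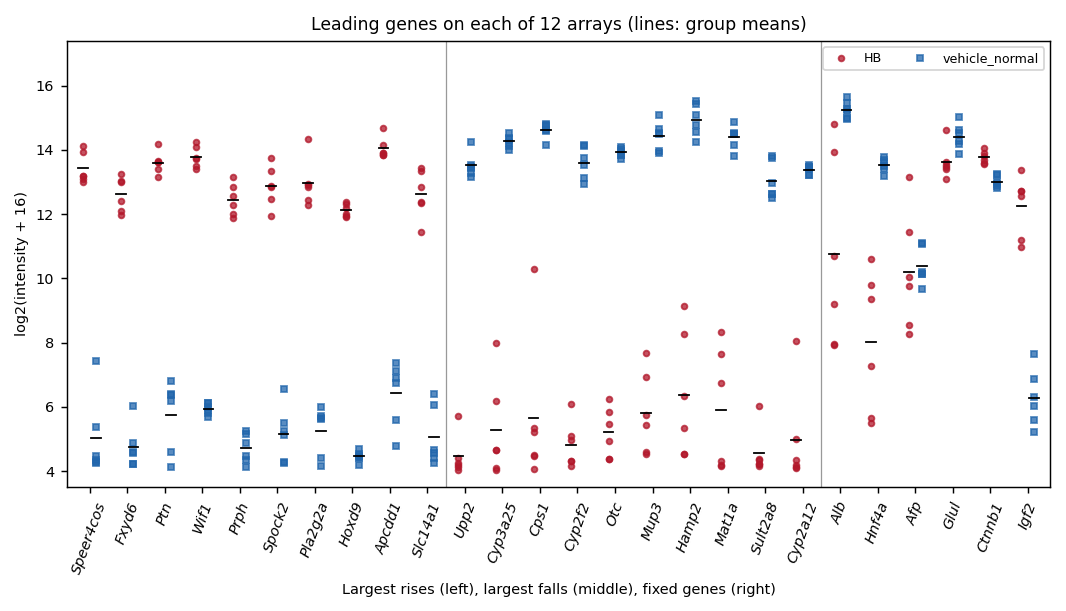
The y axis is log2(intensity + 16), with 6 HB arrays as red circles, 6 vehicle_normal arrays as blue squares and a black line at each group mean. The 10 genes with the largest rises and the 10 with the largest falls do not overlap between the groups, while the HB arrays are spread widely in Alb, Hnf4a and Afp.

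Wnt ligands bind Frizzled and Lrp receptors and keep beta-catenin from being degraded, and beta-catenin then acts with TCF and LEF proteins on target genes. Many of these targets encode inhibitors of the same pathway, and mutation of the beta-catenin gene is a frequent event in hepatoblastoma. Adult hepatocytes, in contrast, run on a network of factors such as HNF4A and CEBPA that maintains plasma protein secretion, nitrogen disposal and drug metabolism. Of the Wnt feedback inhibitors and direct targets, 24 of 29 tested members rose and 2 fell, against 37.2% and 23.1% of all tested genes, with a median of 2.31. Every list count below has these 2 shares as its background. Dkk3, a secreted protein related to the Dickkopf Wnt inhibitors, read 6807 to 12556 (median 8355) in HB and 46.5 to 274 (median 138) in vehicle_normal and rose by 6.01 ± 0.34 (limma, adjusted p = 1.2e-13). Nkd1, an intracellular feedback inhibitor, read 3848 to 6954 (median 4812) in HB and 132 to 381 (median 189) in vehicle_normal and rose by 4.55 ± 0.30. Among targets picked after their values were seen, Axin2, a scaffold of the complex that destroys beta-catenin, rose by 4.46 ± 0.45, Lef1, a nuclear partner of beta-catenin, by 6.93 ± 0.61, and Notum, an enzyme that inactivates Wnt ligands, by 4.32 ± 0.40. Axin2 read 7883 to 9511 (median 8633) in HB and 253 to 607 (median 334) in vehicle_normal, without overlap. The members that fell were Cldn2, a tight-junction claudin (-7.17 ± 0.71), and Frzb, a secreted Wnt-binding protein (-1.46 ± 0.47), whose adjusted p was 0.052 without HB replicates 4 and 5 and whose difference was -2.34 without the arrays with Xist signal. Glul, glutamine synthetase of the hepatocytes around the central vein and a known beta-catenin target in liver, read 8764 to 25343 (median 11548) in HB and 15051 to 32975 (median 21627) in vehicle_normal. It fell by 0.78 ± 0.28 (adjusted p = 0.0179), but the difference was -0.02 after quantile normalization, so its size depends on the scaling. It was also no longer called without HB replicate 3 (adjusted p = 0.0502), without vehicle_normal replicate 1 (0.0508), over the mean of its probe sets (0.177) and once the arrays with Xist signal were left out (0.202). Ctnnb1, the gene of beta-catenin itself, rose by 0.75 ± 0.14 (adjusted p = 8.44e-05), and by only 0.02 when arrays were centred on the median of all probe sets.

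Of the Wnt ligands, R-spondins and receptors, 19 of 35 rose and 5 fell (median 1.16). Wnt10a read 963 to 3429.5 (median 2687) in HB and 1.92 to 10.3 (median 5.31) in vehicle_normal and rose by 6.70 ± 0.32. Wnt6 rose by 5.46 ± 0.46 and the receptor gene Fzd10 by 6.22 ± 0.43, all without overlap. The receptors moved in both directions. Fzd8 fell from 774 to 1835 (median 1432) to 7.22 to 142 (median 44.0), and Fzd4 fell by 2.21 ± 0.36.

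Hox genes give cells their position along the body axis and are largely silent in adult hepatocytes. In the HoxD cluster 5 of 6 tested genes rose and 0 fell (median 6.04), against 37.2% and 23.1% of all tested genes. The filter asks for 6 values above 66.3, and HB has 6 arrays. Hoxd8, Hoxd9 and Hoxd10 had medians of 11.6, 6.06 and 4.45 in vehicle_normal and at most 29.3 in HCC. They passed the filter through the HB arrays, so their direction follows in part from it and the count is a description. Hoxd8 read 4438 to 5944 (median 4979) in HB and 2.67 to 45.5 (median 11.6) in vehicle_normal and rose by 7.42 ± 0.40. Hoxd10 read 1116 to 3218 (median 2031) in HB and 1.68 to 12.8 (median 4.45) in vehicle_normal and rose by 6.46 ± 0.34. The raised genes were Hoxd3 (2.58), Hoxd8, Hoxd9, Hoxd10 and Hoxd11 (5.62), while Hoxd12 stood at -0.12 ± 0.47 (adjusted p = 0.839). The HoxA, HoxB and HoxC genes that could be tested gave another count: 0 of 7 rose and 4 fell (median -1.18), against 37.2% and 23.1% of all tested genes. Most of them were dim, and a stricter filter at the 60th percentile left 2, both called lower. Hoxa3 fell by 1.84 ± 0.43 on its brightest probe set, with another at -0.58. Hoxb3 fell by 1.23 ± 0.37, between dim medians of 73.4 in vehicle_normal and 22.5 in HB, and Hoxb4 by 1.42 ± 0.42. Hoxb4 had overlapping groups and probe sets with differences from -1.42 to 0.07, and over their mean it was not called (adjusted p = 0.15).

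The promoter of Hoxd8 is shown because the gene rose far from a dim level in normal liver and its promoter carries the letters that TCF and LEF proteins bind. The window holds the 250 bases before the RefSeq start (GRCm38.p6, chr2:74704365-74704614, plus strand), 5′ to 3′ on the gene's strand, and the capitals mark the string CTTTGAT, searched on both strands.

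Hoxd8: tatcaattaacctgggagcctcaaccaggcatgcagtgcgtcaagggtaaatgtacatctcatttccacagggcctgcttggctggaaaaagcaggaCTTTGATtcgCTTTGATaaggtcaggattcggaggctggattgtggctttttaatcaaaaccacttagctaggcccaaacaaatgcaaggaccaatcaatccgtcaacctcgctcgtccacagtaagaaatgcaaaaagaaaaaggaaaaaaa

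The string occurred 2 times, starting 153 and 143 bases before the start. It was present in 3.21% of all 32851 promoters of this length, in 3.69% of the 298 promoters of genes that rose by 4 or more and in 4.89% of the 532 promoters of genes that fell by 4 or more. Among the 14407 promoters of all tested genes, the set from which both groups come, the share was 2.46%.

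Homeobox genes outside the Hox clusters rose in 22 of 36 cases and fell in 4 (median 1.43), against 37.2% and 23.1% of all tested genes. Gbx2, a regulator of the embryonic midbrain and hindbrain, read 3509 to 10954 (median 4770.1) in HB and 7.08 to 24.8 (median 14.8) in vehicle_normal and rose by 7.42 ± 0.32. Irx5 rose by 5.76 ± 0.35 and Msx2, a factor of limb and skull development, by 4.84 ± 0.34. The 2 named falls belong to liver development itself. Onecut2, a partner of the liver factor HNF6, fell by 4.32 ± 0.42, and Hhex, which the embryonic liver bud needs, fell by 2.71 ± 0.29. Other regulators active in embryonic tissue rose in 21 of 33 cases and fell in 6 (median 1.65), against the same shares of all tested genes. Tbx4, a T-box factor of the hindlimb and lung, read 2430.5 to 5831 (median 3606) in HB and 1.84 to 81.9 (median 34.9) in vehicle_normal and rose by 6.32 ± 0.38. Foxc2 rose by 4.60 ± 0.41 and Dach1 by 4.24 ± 0.40, whereas Gata4, a factor of liver and heart, fell by 2.54 ± 0.30 and Id2 by 2.24 ± 0.28. Sox factors rose in 6 of 15 cases, a share close to that of all genes, and their median of 0.62 became -0.11 when arrays were centred on the median of all probe sets. Among the rises were Sox11 (3.91 ± 0.38) and Sox4 (3.29 ± 0.29), both active in neural and other progenitors, with Sox12 (2.51 ± 0.48, and 1.63 without the arrays with Xist signal). Sox11 read 751 to 3089 (median 1477) in HB and 47.6 to 115 (median 101) in vehicle_normal.

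Genes of the neuronal cytoskeleton, growth cone and synapse rose in 33 of 38 cases and fell in none (median 2.50), against 37.2% and 23.1% of all tested genes. Genes as dim in normal liver as Prph and Map1b pass the filter through the HB arrays and could hardly fall. A stricter filter at the 60th percentile left 20 genes, of which 19 rose. Prph read 3720.3 to 9049 (median 5522) in HB and 1.61 to 22.0 (median 9.67) in vehicle_normal. Map1b, a microtubule-associated protein of growing axons, read 698 to 1686 (median 1338) in HB and 2.80 to 59.2 (median 11.6) in vehicle_normal and rose by 5.24 ± 0.40. Dpysl4, a collapsin response mediator, rose by 6.48 ± 0.52. The HB and vehicle_normal arrays did not overlap in any of these 3 genes. Ephrins, semaphorins, slits and netrins with their receptors rose in 25 of 57 cases and fell in 14, shares near those of all genes, and their median of 0.70 was -0.04 when arrays were centred on the median of all probe sets. Within the group, receptors and ligands of axon guidance such as Unc5c (5.88 ± 0.35), Sema5a (5.88 ± 0.52) and Robo1 (3.99 ± 0.35) rose. Sema4a read 19.5 to 110.0 (median 36.5) in HB and 3179.7 to 4041 (median 3739) in vehicle_normal and fell by 5.86 ± 0.34, and Sema4g fell by 4.26 ± 0.29.

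Imprinted genes, which are read from only 1 parental copy and often act on fetal growth, rose in 16 of 28 cases and fell in 3 (median 1.31). Igf2, the fetal insulin-like growth factor, read 2007 to 10711 (median 6352) in HB and 20.8 to 186 (median 56.1) in vehicle_normal and rose by 5.99 ± 0.55, or 63.4-fold (limma, adjusted p = 8.6e-10). Cdkn1c, a cyclin kinase inhibitor, rose by 4.55 ± 0.47 and Grb10, an adaptor that dampens insulin signalling, by 3.05 ± 0.38. Slc38a4, an amino acid carrier of the liver, fell by 3.26 ± 0.30 and Slc22a18 by 1.86 ± 0.30. The list of the insulin-like growth factor and growth hormone axis, which also holds Igf2, was divided. In it 6 of 23 genes rose and 9 fell (median -0.17), against 37.2% and 23.1% of all tested genes. The mean of this list relative to vehicle_normal lay between -0.96 and 0.43 over the HB arrays. Ghr, the growth hormone receptor, read 394 to 1104 (median 745) in HB and 11004 to 14826 (median 14324) in vehicle_normal and fell by 4.29 ± 0.33. Igfals, which stabilises circulating insulin-like growth factors, fell by 2.78 ± 0.30 and the binding protein gene Igfbp4 by 1.39 ± 0.16, while Igfbp5 rose by 4.79 ± 0.50.

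Growth factor receptor tyrosine kinases rose in 8 of 29 cases and fell in 11 (median -0.06), against 37.2% and 23.1% of all tested genes. Ret, a receptor of neural and kidney development, read 509 to 3455 (median 2571) in HB and 3.13 to 50.8 (median 37.5) in vehicle_normal and rose by 5.40 ± 0.41, and the collagen receptor gene Ddr1 rose by 3.41 ± 0.36. Erbb3 fell by 3.29 ± 0.28, Fgfr4, the hepatocyte receptor for intestinal FGF, by 3.57 ± 0.34, and Csf1r, the receptor that macrophages depend on, by 3.92 ± 0.36. Secreted growth factors rose in 13 of 37 cases and fell in 7, near the shares of all genes, and their median of 0.47 was -0.16 after quantile normalization and -0.27 when arrays were centred on the median of all probe sets. Ptn read 9025 to 18665 (median 12604) in HB and 1.43 to 96.6 (median 61.8) in vehicle_normal, and its relative Mdk rose by 3.73 ± 0.39 and Fgf3 by 3.85 ± 0.48. Mst1, a factor that hepatocytes release into plasma, fell by 4.2 ± 0.31. Fgf1 fell by 2.47 ± 0.28 on its brightest probe set, while its probe sets gave differences from -2.47 to 0.73.

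Ligands, receptors and antagonists of the TGF-beta and BMP families rose in 25 of 48 cases and fell in 11 (median 0.71), against 37.2% and 23.1% of all tested genes. The share of falls was close to that of all genes. Centring arrays on the median of all probe sets gave 13 rises and 12 falls (median -0.02). Inhbb, which encodes the beta B chain of activins and inhibins, read 3341 to 6325 (median 4755) in HB and 5.03 to 102 (median 43.3) in vehicle_normal and rose by 6.56 ± 0.47. Inhbc, the beta C chain that is typical of hepatocytes, read 16.7 to 54.9 (median 26.0) in HB and 1173 to 3538 (median 1504) in vehicle_normal and fell by 5.28 ± 0.35. Tgfb2 rose by 5.46 ± 0.39 and Fstl1, a follistatin-like protein, by 4.97 ± 0.42, whereas Gdf2, the liver-made BMP9, fell by 4.97 ± 0.57. Hedgehog pathway genes rose in 11 of 16 cases and none fell (median 1.83), where genes as dim in normal liver as Shh could hardly fall. Shh, a ligand, read 117 to 1121 (median 694) in HB and 1.15 to 31.0 (median 10.1) in vehicle_normal and rose by 4.34 ± 0.42. Ptch1, its receptor and a target of the pathway, rose by 1.90 ± 0.19, and Kif7, a kinesin of the primary cilium, by 3.48 ± 0.30. Notch receptors, ligands and targets rose in 12 of 28 cases, close to the share of all genes, with 1 fall and a median of 0.68 that was -0.05 when arrays were centred on the median of all probe sets. The Notch targets Hey2 and Hey1 rose by 4.38 ± 0.46 and 3.69 ± 0.48 and the ligand gene Jag1 by 2.01 ± 0.31, while the ligand gene Dll1 fell by 0.95 ± 0.32 with overlapping groups (adjusted p = 0.302 without the arrays with Xist signal). MAPK output and feedback genes rose in 18 of 32 cases and fell in 3 (median 0.94), against 37.2% and 23.1% of all tested genes. Etv5, an ETS factor downstream of FGF and Ras signals, read 2931 to 6416 (median 4568) in HB and 76.8 to 241 (median 157) in vehicle_normal and rose by 4.72 ± 0.39. Dusp4, a phosphatase that shuts off the pathway, rose by 4.23 ± 0.50 and Ier3 by 3.13 ± 0.42, while Map2k2, a kinase within the cascade, fell by 0.95 ± 0.21.

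Mitosis genes had the highest share of rises among the lists, 56 of 59 with 2 falls and a median of 2.38. Sgo2a, which protects centromeric cohesion, read 164 to 961 (median 670.3) in HB and 2.88 to 98.5 (median 29.0) in vehicle_normal and rose by 3.80 ± 0.43. Prc1, a protein of the central spindle, rose by 2.92 ± 0.34 and Kif22, a chromosome-moving kinesin, by 2.18 ± 0.24. Spc24, a kinetochore protein, fell by 1.40 ± 0.34 with overlapping groups. Pttg1, the securin gene, fell by 0.91 ± 0.23 on its brightest probe set, while its probe sets gave differences from -0.91 to 1.06 and their mean was not called (adjusted p = 0.435). The proliferation marker Mki67, picked after its values were seen, rose by 3.76 ± 0.57. G1 cyclins, kinases and inhibitors rose in 21 of 30 cases and none fell (median 1.08). Skp2, which targets cyclin kinase inhibitors for degradation, read 478 to 1212 (median 711) in HB and 21.7 to 104 (median 76.1) in vehicle_normal and rose by 3.26 ± 0.33, and Rbl1, a relative of the retinoblastoma protein, by 2.35 ± 0.29. Ccnd1, the cyclin D1 gene, and Myc, both picked after their values were seen, rose by 2.31 ± 0.35 and 2.52 ± 0.32. DNA replication and nucleotide supply genes rose in 33 of 52 cases and fell in 5 (median 1.12), with Rfc3, a subunit of the clamp loader (3.58 ± 0.43), Mcm6, a subunit of the replicative helicase (2.96 ± 0.37), and Rpa1, which coats single-stranded DNA (1.60 ± 0.17), among the rises. Paics, an enzyme of purine synthesis, fell by 1.64 ± 0.21. Mcm10 was lower by 2.28 ± 0.44 on its brightest probe set, but its probe sets gave differences from -2.28 to 2.68 and their mean was not called (adjusted p = 0.21).

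Of the p53 targets, 14 of 25 rose and 5 fell (median 1.00), against 37.2% and 23.1% of all tested genes. Phlda3, an inhibitor of Akt, read 2298 to 5363 (median 2862) in HB and 95.6 to 191 (median 173) in vehicle_normal and rose by 4.26 ± 0.34, and Pmaip1, the proapoptotic NOXA gene, rose by 2.85 ± 0.40. Fas, a death receptor, fell by 2.77 ± 0.61 with overlapping groups and Plk3 by 2.04 ± 0.30. Chromatin genes, which include enzymes of DNA and histone methylation, Polycomb proteins and other chromatin proteins, rose in 43 of 60 cases and fell in 2 (median 1.24). The falls were Hmgn5 (-0.89 ± 0.26) and Hmgn1 (-0.42 ± 0.14, with overlapping groups). Ezh2, the methyltransferase of the Polycomb complex PRC2, read 560.3 to 1219 (median 844) in HB and 39.0 to 143 (median 115) in vehicle_normal and rose by 2.94 ± 0.29. Jarid2, which accompanies that complex, rose by 2.60 ± 0.30 and the deacetylase gene Hdac4 by 2.57 ± 0.29.

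The RNA and ribosome lists had smaller differences, of the size that array scaling can move. Ribosome biogenesis genes rose in 38 of 59 cases and fell in 1 (median 0.85, and 0.59, 0.49 and 0.12 under the 3 other scalings). Nop56 and Nop58, core proteins of the particles that methylate ribosomal RNA, rose by 2.27 ± 0.23 and 1.56 ± 0.19, and Rrn3, which RNA polymerase I needs to start, by 2.05 ± 0.30. Splicing factors rose in 30 of 53 cases and fell in 3 (median 0.51), but in 5 cases against 10 falls when arrays were centred on the median of all probe sets, and in 16 cases without the arrays with Xist signal. Hnrnph1 rose by 1.5 ± 0.17 and Tra2b by 1.67 ± 0.20. Cytosolic ribosomal proteins rose in 15 of 43 cases and fell in 10 with a median of -0.01. Quantile normalization gave 37 rises and no falls for them, and centring on the median of all probe sets 3 rises and 25 falls, so the ribosomal proteins have no settled direction here. Rpl14 rose by 2.54 ± 0.41, from 82.9 to 514 (median 320.5) to 786 to 2901 (median 1701), and Rps25 by 1.63 ± 0.28. The brighter Rps2 and Rps29 fell, by 0.75 ± 0.16 and by 0.66 ± 0.16, the latter with overlapping groups.

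**Figure D3:**
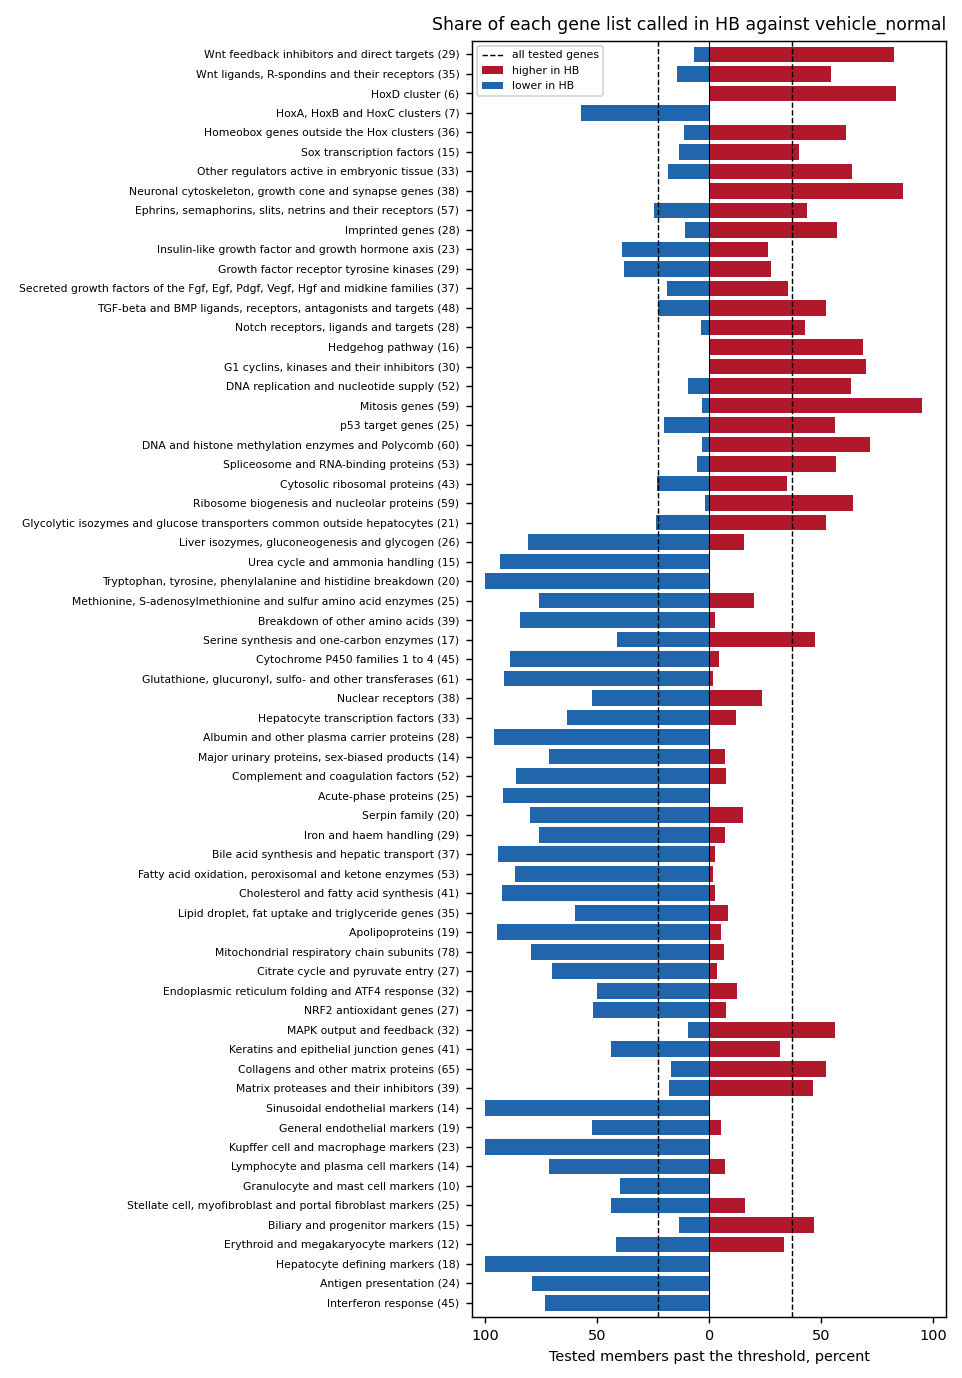
Each bar is 1 of 65 gene lists, with the number of tested members in brackets and the percent called higher in HB to the right (red) and lower to the left (blue). Dashed lines mark the shares of all tested genes, 37.2% and 23.1%. Mitosis, neuronal, HoxD and Wnt target lists extend farthest to the right, and the liver metabolism, plasma protein, macrophage and sinusoidal endothelial lists farthest to the left.

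Alb, the albumin gene, read 229 to 28758 (median 1102) in HB and 32099 to 51639.6 (median 38611) in vehicle_normal and fell by 4.50 ± 0.78 (adjusted p = 2.34e-05). The HB arrays were unlike each other in it, 28758 and 15782 in replicates 4 and 5 and at most 1630 in the others. Afp, the fetal counterpart of albumin and a common marker of hepatoblastoma in patients, read 289 to 9107 (median 953) in HB and 799 to 2173 (median 1143) in vehicle_normal and did not pass the test (-0.19 ± 0.66, adjusted p = 0.822). Its highest HB value, 9107, was in replicate 5, and 4 of the 6 HB arrays lay within or below the vehicle_normal range at 289.2, 357.4, 860.5 and 1045.

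Hepatocyte transcription factors fell in 21 of 33 cases and rose in 4 (median -1.97). Hnf4a, the nuclear receptor at the head of the hepatocyte programme, read 28.7 to 1543 (median 389) in HB and 9288 to 14182 (median 12075) in vehicle_normal and fell by 5.50 ± 0.58 (adjusted p = 1.21e-08). Cebpa, a factor of mature hepatocytes, read 73.6 to 234 (median 151) in HB and 4775 to 5895 (median 5451) in vehicle_normal and fell by 5.17 ± 0.27. Nr5a2 fell by 4.60 ± 0.31 and Nr1i3 fell by 5.73 ± 0.28. Prox1, a homeobox factor that early hepatoblasts also express, rose by 1.64 ± 0.16, and Zhx2, a repressor of fetal liver genes after birth, by 2.40 ± 0.38. Foxa2 stood at 0.62 ± 0.28 and did not pass (adjusted p = 0.0572). The loss of factors was therefore not uniform across the list.

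Promoters of 4 liver genes are shown because they carry the recognition letters of HNF1, a homeobox factor of hepatocytes, and because the genes differ in outcome: Hnf4a, Alb and Ugt2a3 fell and Afp did not pass the test. Each window holds the 250 bases before the RefSeq start (GRCm38.p6), 5′ to 3′ on the gene's strand. Capitals mark matches to the HNF1 motif, a palindrome-like string of 13 letters, with at most 2 mismatches, searched on both strands. The coordinates are chr2:163506607-163506856, plus strand for Hnf4a, chr5:90460620-90460869, plus strand for Alb, chr5:90490464-90490713, plus strand for Afp and chr5:87337196-87337445, minus strand for Ugt2a3.

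Hnf4a: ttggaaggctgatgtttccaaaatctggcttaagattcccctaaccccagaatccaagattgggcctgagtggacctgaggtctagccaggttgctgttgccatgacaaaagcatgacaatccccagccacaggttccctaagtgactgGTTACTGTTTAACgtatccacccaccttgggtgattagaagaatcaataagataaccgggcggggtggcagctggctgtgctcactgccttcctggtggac

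Alb: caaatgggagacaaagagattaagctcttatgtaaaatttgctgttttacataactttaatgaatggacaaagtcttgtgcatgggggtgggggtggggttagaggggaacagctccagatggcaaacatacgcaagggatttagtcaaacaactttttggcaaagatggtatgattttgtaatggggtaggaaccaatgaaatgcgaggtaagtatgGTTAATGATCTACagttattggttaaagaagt

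Afp: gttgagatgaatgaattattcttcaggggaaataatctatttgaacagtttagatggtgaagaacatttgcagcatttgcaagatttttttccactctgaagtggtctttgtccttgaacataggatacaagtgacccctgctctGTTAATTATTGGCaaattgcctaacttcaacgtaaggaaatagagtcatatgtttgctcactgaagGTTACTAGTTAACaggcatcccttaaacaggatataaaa

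Ugt2a3: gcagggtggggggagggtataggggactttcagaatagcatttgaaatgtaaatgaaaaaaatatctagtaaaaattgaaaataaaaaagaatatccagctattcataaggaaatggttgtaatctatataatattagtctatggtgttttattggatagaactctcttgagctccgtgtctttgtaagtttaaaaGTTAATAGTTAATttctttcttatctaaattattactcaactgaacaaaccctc

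The match lies 101 bases before the start in Hnf4a, 32 in Alb and 54 in Ugt2a3, and Afp has matches at 105 and 39. Such a match was present in 1.24% of all 32851 promoters, in 0.993% of the 14407 promoters of tested genes and in 9.21% of the 532 promoters of genes that fell by 4 or more. None of the 298 promoters of genes that rose by 4 or more held one. The HNF4 string CAAAGTCCA, without mismatch, was present in 0.384% of all promoters, 0.423% of those of tested genes, 2.63% of those of the fallen and 0.336% of those of the risen genes. It shares the letters CAAAG with the reverse complement of the TCF and LEF string, so matches of these can lie over each other. These shares are descriptions of sequence letters, and Afp shows that a promoter with 2 matches belonged to a gene without a called difference.

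Albumin and other plasma carriers fell in 27 of 28 cases (median -6.36). Itih1, an inhibitor heavy chain, read 7.68 to 309.5 (median 99.5) in HB and 8527 to 14221 (median 12413) in vehicle_normal and fell by 6.82 ± 0.39. Pon1, an esterase carried on lipoproteins, fell by 7.19 ± 0.51 and Selenbp1 fell by 3.15 ± 0.18. Complement and coagulation factors fell in 45 of 52 cases and rose in 4 (median -5.67). Masp1, a protease that starts the lectin pathway, read 25.9 to 176 (median 52.4) in HB and 6276 to 9029 (median 7329.9) in vehicle_normal and fell by 6.46 ± 0.28. C8g fell by 6.13 ± 0.28 and Klkb1, plasma prekallikrein, by 5.82 ± 0.31. Plat, the tissue plasminogen activator, went against the list, from 2.49 to 64.9 (median 12.1) to 786 to 5661 (median 2246) (6.07 ± 0.74). Tfpi, an inhibitor of tissue factor made mainly by endothelium, rose by 1.23 ± 0.29 with overlapping groups, and was not called when arrays were centred on the median of all probe sets (0.49). Acute-phase proteins fell in 23 of 25 cases (median -5.01), among them Orm1 (-8.10 ± 0.66), Hpx, the haem carrier (-7.58 ± 0.61), and Crp (-7.40 ± 0.49). Orm1 read 2.72 to 288 (median 15.6) in HB and 9285 to 21209.8 (median 11398) in vehicle_normal. Serpins fell in 16 of 20 cases, with antithrombin, Serpinc1 (-6.31 ± 0.42), Serpind1 (-5.45 ± 0.35) and Serpinf1 (-5.02 ± 0.34). Among the serpins that rose, Serpinh1 is a collagen chaperone (3.28 ± 0.39) and Serpini1 a neuronal protease inhibitor (3.36 ± 0.38).

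Iron and haem genes fell in 22 of 29 cases and rose in 2 (median -1.84). Hamp2, a hepcidin gene, read 6.92 to 547 (median 44.9) in HB and 19288 to 46665 (median 31544) in vehicle_normal. The genes through which hepatocytes sense iron fell with it, Hjv by 6.34 ± 0.36, Hfe by 3.82 ± 0.20 and Tmprss6 by 5.96 ± 0.34. Tfrc, the transferrin receptor through which dividing cells take up iron, rose by 1.30 ± 0.31 with overlapping groups, and was not called without the arrays with Xist signal (0.71) or when arrays were centred on the median of all probe sets (0.56). Major urinary proteins and other products with sex-biased liver levels fell in 10 of 14 cases (median -4.83). Mup3 read 7.03 to 189.6 (median 32.3) in HB and 15433 to 34846 (median 23477) in vehicle_normal, and because the Mup genes are near-identical its probe sets may read several of them. Cyp2b9, a female-biased cytochrome, read 4.25 to 200.5 (median 51.0) in HB and 733 to 13918 (median 11159) in vehicle_normal and fell by 6.83 ± 0.69. With 4 of 6 vehicle_normal arrays carrying Xist signal, the level of a sex-biased gene can follow the sex of the tissue as well. Without the arrays with Xist signal Mup3 differed by -9.00 and Cyp2b9 by -5.12, and both stayed called. Susd4 rose by 3.92 ± 0.71, but by 1.48 without those arrays (adjusted p = 0.0489). Its vehicle_normal arrays ranged from 27.9 to 1569 (median 120.5), and the highest of them almost reached the lowest HB array.

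Urea cycle and ammonia genes fell in 14 of 15 cases and none rose (median -3.83). Beside Cps1 and Otc, Slc25a15, the mitochondrial ornithine carrier, read 537 to 1093 (median 948) in HB and 9422 to 12482 (median 11360.4) in vehicle_normal and fell by 3.65 ± 0.21, and Slc38a3, a glutamine carrier, by 5.98 ± 0.33. Enzymes that break down tryptophan, tyrosine, phenylalanine and histidine fell in 20 of 20 cases, with a median of -6.07, among the lowest of the lists. Haao, an enzyme of the kynurenine path to NAD, read 14.0 to 128 (median 44.8) in HB and 7189 to 13255 (median 11548) in vehicle_normal and fell by 7.53 ± 0.33. Fah and Gstz1, the last enzymes of tyrosine breakdown, fell by 3.81 ± 0.19 and 3.68 ± 0.20. Other amino acid breakdown genes fell in 33 of 39 cases (median -2.44), including Agxt (-7.27 ± 0.43) and Agxt2 (-6.47 ± 0.32), which handle glyoxylate, and Prodh2 (-5.25 ± 0.33). The single rise in that list was Asns, asparagine synthetase, from 0.54 to 188 (median 19.5) to 1266 to 7932 (median 2314) (5.85 ± 0.67, adjusted p = 4.09e-08).

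Methionine and S-adenosylmethionine enzymes fell in 19 of 25 cases and rose in 5 (median -3.78). Mat1a, the liver form of methionine adenosyltransferase, read 1.83 to 306 (median 47.0) in HB and 14272 to 30083 (median 22942) in vehicle_normal. Gnmt, which consumes S-adenosylmethionine, read 18.1 to 173 (median 80.4) in HB and 12881 to 32617 (median 25579.7) in vehicle_normal and fell by 7.99 ± 0.34. Bhmt2 fell by 7.66 ± 0.39, and Dmgdh, of the betaine branch, by 6.82 ± 0.31. Mtr, the folate-dependent methionine synthase found in most tissues, stood at 1.13 ± 0.30 and its reductase Mtrr at 1.27 ± 0.36. Both were called on the deposited scale and neither under quantile normalization (0.45 and 0.63) or centring on the median of all probe sets (0.40 and 0.54). Serine synthesis and one-carbon enzymes were divided, with 8 of 17 rises and 7 falls, against 37.2% and 23.1% of all tested genes. Phgdh and Psat1, which make serine from a glycolytic intermediate, rose by 4.29 ± 0.61 and 4.26 ± 0.58, and Mthfd1l, a mitochondrial folate enzyme, by 2.43 ± 0.38. Phgdh read 2407 to 3766 (median 2796) in HB and 65.4 to 309 (median 127) in vehicle_normal. Ftcd and Aldh1l1, folate enzymes of the liver that break down histidine units and formyl folate, fell by 6.17 ± 0.47 and 5.78 ± 0.28.

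Cytochromes P450 of families 1 to 4 fell in 40 of 45 cases and rose in 2 (median -6.08). Cyp3a25 read 0.46 to 235 (median 9.18) in HB and 16485 to 23805 (median 19921) in vehicle_normal. Cyp2c50 fell by 7.44 ± 0.40 and Cyp2d22 by 5.63 ± 0.28, and since P450 genes of a subfamily are close copies, their probe sets may read more than 1 gene. The rises were small, Cyp4f16 at 1.43 ± 0.35 and Cyp2s1, a form found outside the liver, at 1.5 ± 0.50, and both were no longer called when arrays were centred on the median of all probe sets (0.70 and 0.76) or without the arrays with Xist signal. Transferases of drug conjugation fell in 56 of 61 cases (median -4.51). Ugt2a3, a glucuronyl transferase, had the smallest adjusted p of the comparison's conjugation genes (1.49e-17), with 0.36 to 25.9 (median 8.42) in HB and 7256 to 9906 (median 8071) in vehicle_normal. Ugt2b1 fell by 8.15 ± 0.41 and the sulfotransferase gene Sult1b1 by 5.71 ± 0.30. Nuclear receptors fell in 20 of 38 cases and rose in 9 (median -0.71), against 23.1% and 37.2% of all tested genes. The drug sensors Nr1i3 (CAR) and Nr1i2 (PXR) fell, Nr1i3 from 1949 to 5542 (median 4196) to 38.4 to 81.4 (median 60.6), and Nr1i2 by 4.44 ± 0.29. Nr2f1, an orphan receptor of the embryonic nervous system, read 1745 to 3418 (median 2156) in HB and 27.9 to 139 (median 80.3) in vehicle_normal and rose by 4.67 ± 0.33, and Rarb, a retinoic acid receptor, by 3.40 ± 0.45. Bile acid synthesis and hepatic transport genes fell in 35 of 37 cases (median -4.80). Slc10a1, the uptake carrier for bile salts, read 77.2 to 377 (median 177) in HB and 11861 to 16239 (median 14593) in vehicle_normal and fell by 6.17 ± 0.30. Akr1d1, a reductase of bile acid synthesis, fell by 7.33 ± 0.37 and Abcc6 by 6.21 ± 0.22. Abcc4, an export pump, rose by 1.70 ± 0.49, and was not called when arrays were centred on the median of all probe sets (0.96).

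Apolipoproteins and their partners fell in 18 of 19 cases (median -6.01). Apoa5, which promotes clearance of triglycerides, read 19.8 to 353 (median 34.6) in HB and 15859 to 20616 (median 19157) in vehicle_normal and fell by 8.0 ± 0.40. Lcat, which esterifies plasma cholesterol, fell by 6.66 ± 0.26 and Apon by 6.87 ± 0.41. The rise was Apod, a lipocalin not specific to the liver, by 3.37 ± 0.51. Fatty acid oxidation, peroxisomal and ketone enzymes fell in 46 of 53 cases (median -2.35), with Acsm1 (-7.25 ± 0.41) and Hacl1 (-4.42 ± 0.27) among them. Crot was lower by 4.06 ± 0.24 on its brightest probe set, with another at 1.02. Oxct1, the enzyme with which tissues outside the liver use ketone bodies, read 722 to 4628 (median 2779) in HB and 215 to 489.9 (median 325) in vehicle_normal and rose by 2.82 ± 0.42. Cholesterol and fatty acid synthesis genes fell in 38 of 41 cases (median -2.57). Insig1, a sterol-regulated brake on the pathway, read 845 to 1749.8 (median 1248) in HB and 17926 to 21488 (median 20670.5) in vehicle_normal and fell by 4.01 ± 0.26. Elovl2 fell by 7.86 ± 0.59 and Mlxipl, the carbohydrate-responsive factor ChREBP, fell by 5.69 ± 0.45. Lipid droplet, fat uptake and triglyceride genes fell in 21 of 35 cases and rose in 3 (median -2.70). Slc27a5, a bile acid and fatty acid ligase, fell by 6.62 ± 0.39, Cideb by 5.24 ± 0.32 and Agpat2 by 3.71 ± 0.22, while Vldlr rose by 2.70 ± 0.48 and Fabp3 by 1.99 ± 0.30.

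Liver isozymes, gluconeogenesis and glycogen genes fell in 21 of 26 cases and rose in 4 (median -3.10). Pck1, the gate of gluconeogenesis, read 11.3 to 93.2 (median 27.4) in HB and 8714 to 15810.5 (median 12913) in vehicle_normal and fell by 7.86 ± 0.47. Fbp1, a later enzyme of that path, read 47.4 to 494 (median 77.0) in HB and 18128 to 27688 (median 21647) in vehicle_normal and fell by 7.26 ± 0.38, and Tkfc, which channels fructose, by 4.36 ± 0.26. Pck2, the mitochondrial relative of Pck1, rose by 1.52 ± 0.34 and Gyg, the primer of glycogen, by 2.05 ± 0.38, both with overlapping groups, and Pck2 was not called when arrays were centred on the median of all probe sets (0.78). Glycolytic genes common outside hepatocytes rose in 11 of 21 cases and fell in 5 (median 0.86), against 37.2% and 23.1% of all tested genes. Centring on the median of all probe sets gave 8 rises and 7 falls. The mean of the list relative to vehicle_normal ran from 0.38 in HB replicate 2 to 1.73 in HB replicate 5. Pkm, the pyruvate kinase of most dividing tissues, read 9729 to 18204 (median 11559.6) in HB and 443 to 1527 (median 765) in vehicle_normal and rose by 3.96 ± 0.37. Eno2, the neuronal enolase, rose by 4.65 ± 0.52 and hexokinase 1, Hk1, by 2.83 ± 0.35. Slc16a1, a lactate carrier, fell by 2.45 ± 0.32. Pdk1 was lower by 1.70 ± 0.27 on its brightest probe set, while its probe sets gave differences from -1.70 to 1.11 and their mean was not called (adjusted p = 0.335).

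Related forms of an enzyme or factor were set side by side in 12 pairs in which 1 form is abundant in adult liver. The pairs were picked after their values were seen, so how many of them moved in opposite directions follows from the choice and is no result. Pklr fell by 4.76 ± 0.60 where Pkm rose. Pygl, the liver glycogen phosphorylase, fell by 2.72 ± 0.19 and Pygb, the brain form, rose by 2.42 ± 0.31. Igf1 fell by 3.52 ± 0.57 where Igf2 rose. Scd1, the desaturase of liver fat synthesis, fell by 3.38 ± 0.38 and Scd2 rose by 4.01 ± 0.61. Cpt1a fell by 2.51 ± 0.25 and Cpt1c, the brain form, rose by 4.24 ± 0.45. Scd2 read 1450.0 to 4799 (median 2623) in HB and 113 to 195 (median 128) in vehicle_normal. Slc2a2, the liver glucose transporter, fell by 7.14 ± 0.59, with 0.89 ± 0.35 for Slc2a1 (adjusted p = 0.0321) and overlapping groups. The call of Slc2a1 was lost without any 1 of HB replicates 1, 3, 4 and 5 or vehicle_normal replicates 2 and 5 (adjusted p from 0.0521 to 0.106). The related form did not pass in these pairs: Gys1 stood at 0.78 ± 0.43 and Arg2 at -0.13 ± 0.53, beside falls of 5.38 ± 0.55 in Gys2 and 7.08 ± 0.55 in Arg1. Fabp1, which pairs with Fabp3, fell by 6.67 ± 0.87.

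**Figure D4:**
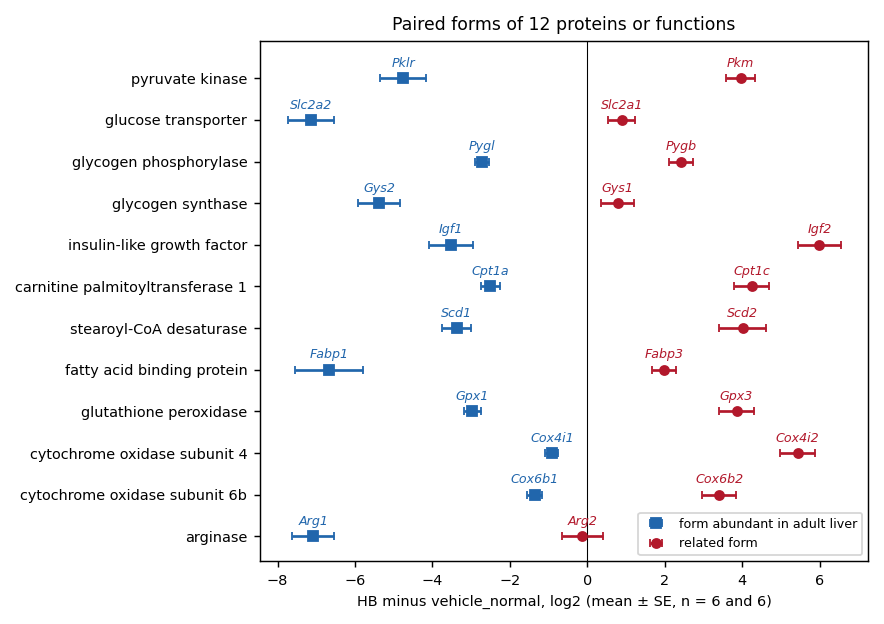
The x axis is the log2 difference, HB minus vehicle_normal, as mean ± SE with n = 6 and 6, for 12 pairs of related genes. Blue squares are forms abundant in adult liver, all below 0, and red circles are related forms, of which Gys1 and Arg2 did not pass the test. The pairs were picked after their values were seen.

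Mitochondrial respiratory chain subunits fell in 62 of 78 cases and rose in 5 with a median of -1.09, a far smaller change than in the liver-specific lists (-0.47 after quantile normalization). Atp5pb, a subunit of ATP synthase, read 2419 to 5004 (median 3563) in HB and 11633 to 14905 (median 14187) in vehicle_normal and fell by 1.96 ± 0.17. Sdhb and Sdhc of complex II fell by 1.96 ± 0.19 and 1.92 ± 0.18. Among the rises were tissue-specific forms of cytochrome oxidase subunits. Cox4i2 read 1730.0 to 4568 (median 2849) in HB and 12.2 to 149.8 (median 53.6) in vehicle_normal and rose by 5.43 ± 0.45, and Cox6b2, a form known from testis, rose by 3.40 ± 0.43, while their widespread counterparts Cox4i1 and Cox6b1 fell by 0.92 ± 0.17 and 1.36 ± 0.20. The fall of Cox4i1 was not called after quantile normalization (-0.23). Citrate cycle genes fell in 19 of 27 cases (median -0.94). Suclg2 fell by 3.54 ± 0.17, and the cytosolic enzymes Idh1 and Aco1 fell by 3.88 ± 0.26 and 2.37 ± 0.18. Idh3a, the catalytic subunit of the NAD-dependent isocitrate dehydrogenase, rose by 1.24 ± 0.26, and was not called when arrays were centred on the median of all probe sets (0.50).

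Endoplasmic reticulum folding and ATF4 response genes fell in 16 of 32 cases and rose in 4 (median -0.62). Edem1, Calr and Dnajc3, which fold or clear secretory proteins, fell by 2.26 ± 0.20, 1.39 ± 0.20 and 1.32 ± 0.20. Asns and Atf3 (1.88 ± 0.41), both induced by ATF4, rose. NRF2 antioxidant genes fell in 14 of 27 cases and rose in 2 (median -0.96). Cat, the catalase gene, read 3237 to 5078 (median 4502) in HB and 24834 to 29900 (median 28179.7) in vehicle_normal and fell by 2.68 ± 0.18. Gpx1 fell by 2.97 ± 0.22 and Sod2 by 2.00 ± 0.17, whereas the secreted Gpx3 rose by 3.85 ± 0.45.

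Keratin and epithelial junction genes rose in 13 of 41 cases and fell in 18 (median -0.64), against 37.2% and 23.1% of all tested genes. The hepatocyte gap junction genes Gjb1 and Gjb2 fell by 6.30 ± 0.35 and 7.55 ± 0.43 and Cldn3 by 3.89 ± 0.31. Gjb2 read 3.76 to 189 (median 52.5) in HB and 9954 to 14755 (median 10531) in vehicle_normal. Cdh11, a mesenchymal cadherin, read 827 to 5965 (median 4093) in HB and 0.68 to 33.2 (median 9.17) in vehicle_normal and rose by 6.86 ± 0.44. Krt23 rose by 6.15 ± 0.49, whereas Krt8, the hepatocyte keratin, picked after its values were seen, fell by 5.04 ± 0.70. Collagens and other matrix proteins rose in 34 of 65 cases and fell in 11 (median 1.09), against 37.2% and 23.1% of all tested genes. Quantile normalization gave 28 rises and 17 falls, and centring on the median of all probe sets 25 and 19 (median 0.35). Fbn2, a fibrillin of fetal tissue, read 391 to 6475 (median 2999) in HB and 4.52 to 61.0 (median 30.3) in vehicle_normal and rose by 6.00 ± 0.51, and Col9a1, a cartilage collagen, by 3.71 ± 0.33. Fn1, the fibronectin that hepatocytes secrete into plasma, fell by 3.89 ± 0.40 and Sdc2, a surface proteoglycan, by 2.02 ± 0.18. Matrix proteases and their inhibitors rose in 18 of 39 cases and fell in 7, near the 37.2% and 23.1% of all tested genes, with a median of 0.38 that was -0.35 when arrays were centred on the median of all probe sets. Mmp2 and Mmp11 rose by 5.36 ± 0.52 and 4.36 ± 0.45 and Adamts10 by 3.36 ± 0.34. The lysosomal cathepsin genes Ctsb and Ctsl fell by 2.01 ± 0.16 and 1.96 ± 0.26.

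Markers of the other cells of liver did not move as 1 group. Sinusoidal endothelial markers fell in 14 of 14 cases (median -3.43), and their summed intensity was 1273 to 3226 on the HB arrays and 26110 to 35520 on the vehicle_normal arrays. Clec4g, a lectin of these cells, read 2.68 to 52.3 (median 17.6) in HB and 4124 to 6041 (median 5080.4) in vehicle_normal and fell by 7.16 ± 0.41. Dnase1l3 fell by 6.53 ± 0.35 and Stab2, a scavenger receptor, by 4.72 ± 0.29. General endothelial markers fell in 10 of 19 cases with 1 rise (median -0.88; summed intensity 3679 to 10550 and 10310 to 10980). Tek fell by 3.48 ± 0.56, Ptprb by 3.02 ± 0.33 and Kdr by 2.23 ± 0.39, while Flt1, another receptor of vascular endothelial growth factor, rose by 1.81 ± 0.43 with overlapping groups. The 10 falls among general endothelial markers became 5 without the arrays with Xist signal.

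Macrophage and Kupffer cell markers fell in 23 of 23 cases (median -2.96; summed intensity 4479 to 17500 in HB and 47980 to 139000 in vehicle_normal). Cd5l, secreted by tissue macrophages, read 1.89 to 148 (median 46.2) in HB and 2300.1 to 12014 (median 7994) in vehicle_normal and fell by 7.16 ± 0.59, and Slc40a1, the iron exporter, fell by 5.22 ± 0.39. Lymphocyte and plasma cell markers fell in 10 of 14 cases (median -1.56; summed intensity 322.5 to 1952 and 1942 to 10770). Ighm, the immunoglobulin M heavy chain, read 11.1 to 18.3 (median 15.9) in HB and 515 to 5485 (median 4494) in vehicle_normal and fell by 6.68 ± 0.68, Cd3e, a T cell marker, by 2.56 ± 0.43 and Ptprc, the pan-leukocyte CD45, by 2.86 ± 0.47. Cd4 was the exception, higher by 1.91 ± 0.74 (adjusted p = 0.0289) with overlapping groups. That call was lost under all 3 other scalings, without any 1 of HB replicates 1, 3 and 5 or vehicle_normal replicates 1 to 4, and in the fit of the 2 groups alone (adjusted p from 0.0573 to 0.18). The 10 lymphocyte falls became 4 without the arrays with Xist signal. Granulocyte markers fell in 4 of 10 cases, against 23.1% of all tested genes (summed intensity 364.9 to 3722 and 2765 to 12420). The other 6 were not called. S100a8 stood at -3.85 ± 0.79 and Lcn2 at -3.88 ± 0.81. The groups overlapped in Lcn2, which read 1456 on HB replicate 4 and 372.1 on vehicle_normal replicate 2. Antigen presentation genes fell in 19 of 24 cases and none rose (median -1.99). H2-K1, a class I heavy chain, read 1826 to 4392 (median 2312) in HB and 14440.2 to 20087 (median 16807) in vehicle_normal and fell by 2.71 ± 0.18. The liver class I gene H2-Q10 fell by 5.84 ± 0.42 and Cd1d1 by 2.67 ± 0.20. Interferon response genes fell in 33 of 45 cases and none rose (median -1.72). Ifih1, a sensor of viral RNA, read 17.3 to 261 (median 92.4) in HB and 1448 to 2187 (median 1890.0) in vehicle_normal and fell by 4.27 ± 0.33, Ifi47 fell by 4.57 ± 0.48 and Iigp1 by 5.99 ± 0.65. The part of the fewer macrophage and lymphocyte transcripts in the falls of the antigen presentation and interferon lists was not tested.

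Stellate cell, myofibroblast and portal fibroblast markers fell in 11 of 25 cases and rose in 4 (median -0.93; summed intensity 10980 to 43760 in HB and 27880 to 38190 in vehicle_normal). Over all tested genes 23.1% fell and 37.2% rose, and the summed intensities of the groups overlapped. Among the falls were Lrat, which stores retinol (-4.40 ± 0.45), and Colec11 (-4.95 ± 0.55), named for their small adjusted p. Eln, the elastin gene, rose by 2.91 ± 0.56 and Pdgfra, a receptor of mesenchymal cells, by 1.94 ± 0.41. Biliary and progenitor markers rose in 7 of 15 cases, not far from the 37.2% of all tested genes, and fell in 2 (median 0.99; summed intensity 23680 to 33890 and 6844 to 9325). Cd24a, a surface protein of progenitor cells, read 9959 to 15415 (median 12224) in HB and 296 to 1232 (median 661) in vehicle_normal and rose by 4.2 ± 0.46. Krt7 rose by 2.31 ± 0.54 (adjusted p = 0.0772 without the arrays with Xist signal), while Alcam fell by 3.40 ± 0.45. The count of 7 biliary rises became 4 without HB replicate 2, 4 without vehicle_normal replicate 2, and 2 without the arrays with Xist signal. It was also 4 under each of the 3 other scalings. Centring on the median of all probe sets gave 4 falls beside them and a median of 0.25. Erythroid and megakaryocyte markers were divided, with 4 of 12 rises and 5 falls, against 37.2% and 23.1% of all tested genes (summed intensity 4085 to 19340 and 10270 to 23060). Klf1 and Car1 fell by 2.51 ± 0.54 and 2.51 ± 0.49, and the HB range of Hbb-b2, 1116 to 14075 (median 2795), overlapped its range of 7082 to 20533 (median 9999.6) in vehicle_normal.

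**Figure D5:**
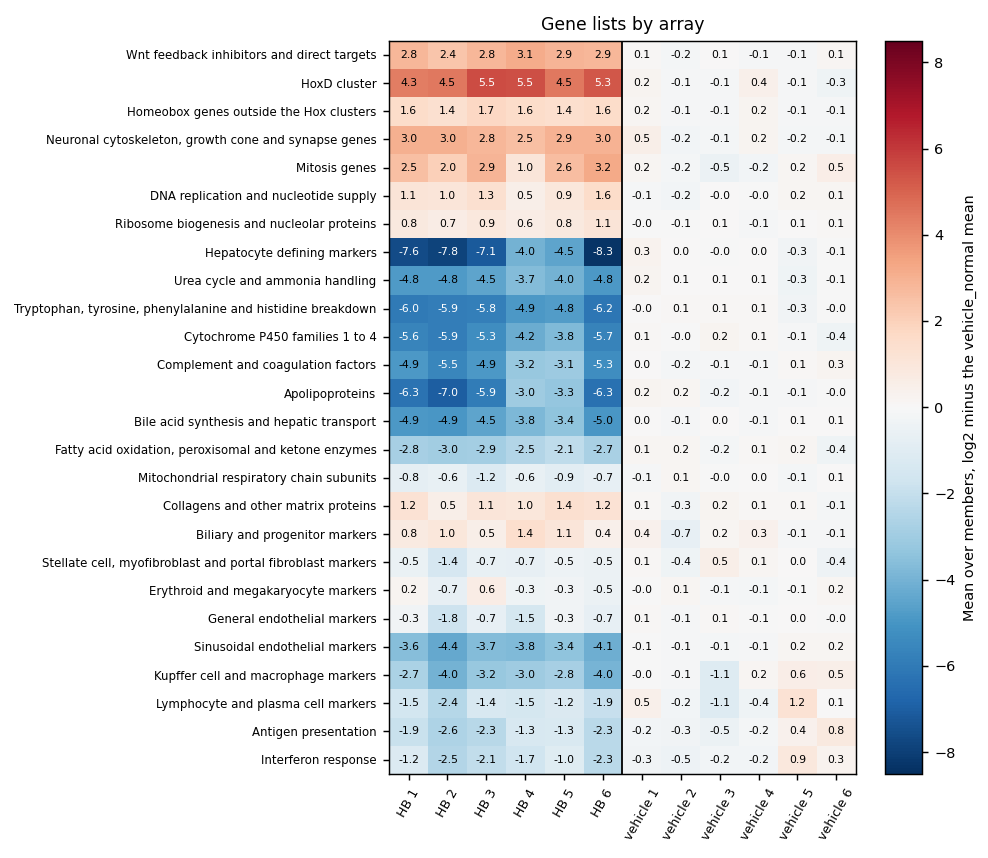
Each cell is the mean over the tested members of a list on 1 array, in log2(intensity + 16) minus the mean of the 6 vehicle_normal arrays, with HB arrays to the left of the black line. Hepatocyte markers lie at -4.0 and -4.5 in HB replicates 4 and 5 and between -7.1 and -8.3 in the others, while Wnt targets lie between 2.4 and 3.1 in all 6.

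The HB arrays differed among themselves, most plainly in the hepatocyte markers. The mean of the hepatocyte defining markers was -4.02 in HB replicate 4 and -4.49 in replicate 5, and -7.11 to -8.31 in the other 4, relative to vehicle_normal. The median SD of these 18 genes was 2.26 among the HB arrays and 0.25 among the vehicle_normal arrays, whereas over all tested genes it was 0.47 and 0.48. Hnf4a was highest in replicate 4 (1543), but replicate 2, with Alb at 230.7, followed at 872.6. The Wnt target mean was 2.35 to 3.14 over the 6 HB arrays and the HoxD mean 4.34 to 5.55. The mean of the mitosis genes was 1.04 in HB replicate 4 and 2.02 to 3.19 in the other HB arrays. Igf2 was lowest in replicates 4 and 5, at 2007 and 2318, and 6024 to 10711 in the others. Without replicates 4 and 5, 4873 genes rose and 3141 fell. Whether these arrays hold more non-tumour hepatocytes or tumour cells with more hepatocyte RNA was not tested.

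The neighbouring tissues put these levels in context. In BDCA_nontumor the medians of the 10 genes with the largest rises were 3.38 to 73.8, and those of the 10 largest falls were 2276 to 24372. In HCC the same medians were 5.26 to 467.9 and 62.7 to 13685. All 10 rises and all 10 falls also passed the threshold in the same direction in HB against HCC, a comparison that shares the HB arrays and in which 28.9% of all genes were higher and 21.6% lower. Hoxd9 had a median of 5.26 in HCC (HB higher by 7.35, adjusted p = 3.6e-15) and Igf2 of 178 (HB higher by 4.04, adjusted p = 2.1e-06). Some genes raised in HB did not pass the threshold against HCC, such as Phgdh (adjusted p = 0.689) and Ier3 (adjusted p = 0.856). Phgdh had an HCC median of 6378 and Ier3 of 2396, beside 91.0 and 596 in BDCA_nontumor. Afp had an HCC median of 22106, above its range in HB (HB lower by 3.32, adjusted p = 0.000314).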

How the data were processed

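Total RNA (10 ng a sample) was amplified, labelled with biotin and hybridised to mouse oligonucleotide arrays, 1 a sample, per the labels' protocols. The deposited values are intensities on a linear scale, made by the authors with MAS5 per the submitters' processing notes (version not given in the sources used here). Each array had a 2% trimmed mean of 500. The number of arrays limits the precision.

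Of 45101 probe sets, 34945 named 1 gene, 932 several and 9160 none in the platform annotation, and 64 were controls. Probe sets whose 6th highest value exceeded the 40th percentile of all values (66.3) were kept, and the brightest stood for each gene, which left 14086 genes. A gene bright in only 1 group passes through the arrays of that group, and its direction then follows in part from the filter. HCC replicates 3 and 4 were near duplicates and were averaged, which left 23 samples. log2(intensity + 16) was fitted in limma 3.58.1 (R 4.3.3) with 1 mean per group and trended moderated variances. P-values were two-sided and Benjamini-Hochberg adjusted over all tested genes, with a threshold of 0.05. Array measures were compared by exact permutation tests, adjusted over 5 measures. The fit was tested on simulated data of 14086 genes with independent normal noise, of which 200 were changed in HB. It recovered 31% of genes changed by 1 and 84% of those changed by 2 on the log2 scale, with 9 false calls among 124. In the data 60.3% of the genes were called and the array medians differed between the groups, so these rates do not carry over.

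The members and all 65 lists were chosen with earlier results of these data known, and the lists are described by counts and medians. Genes were named by rule: the 10 largest differences per direction without overlap, up to 3 called members of a list in its main direction and up to 2 in the other ranked on adjusted p, and 10 further genes (Wif1, Hoxd9, Cps1, Otc, Alb, Afp, Ctnnb1, Glul, Igf2, Hnf4a). Most genes that the rule allows are described. Genes outside it were picked after their values were seen: Hoxd3, Hoxd11, Hoxd12, Foxa2, the paired forms and those marked so in the text. Promoters came from RefSeq (GRCm38.p6). The alternatives changed the scaling, the pseudocount, the filter, the choice of probe set, the variance model, array weights, the samples and the replicate block. Same-numbered HB and vehicle_normal arrays did not deviate together (r between -0.07 and 0.02), so the numbers were not used as pairs. Python 3.11.15 and matplotlib 3.10.9 were used for the figures.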

Additional observations from a re-analysis of the deposited data

Results flagged for a closer look

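In groups of 6 arrays, the highest or lowest value was marked where its gap to the nearest other value exceeded 0.625 of the group's range, which chance does in about 1 in 20 groups. Of 720 groups of values looked at, for the named genes and the lists, 53 were marked. The values printed for genes are intensities, not the log2 values on which the gap was taken, and the range of the other 5 arrays follows each.

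HB replicate 1 was marked in 3 cases. Dll1 read 30.28 there, beside 76.21 to 100.8. Gdf2 read 47.29 there, beside 4.92 to 9.21. Gstz1 read 2061 there, beside 1031 to 1307.

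HB replicate 2 was marked in 5 cases. Mcm10 read 1291 there, beside 151.5 to 339.4. Oxct1 read 721.6 there, beside 2594 to 4628. Serpinh1 read 4583 there, beside 7651 to 9158. Sox transcription factors averaged 0.29 there on the log2 scale relative to vehicle_normal, beside 0.87 to 1.16. Stellate cell, myofibroblast and portal fibroblast markers averaged -1.41 there on the log2 scale relative to vehicle_normal, beside -0.67 to -0.46.

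HB replicate 3 was marked in 4 cases. Fzd4 read 49.52 there, beside 123.7 to 195.1. Sult2a8 read 48.53 there, beside 2 to 4.66. Tfrc read 1687 there, beside 838.8 to 1051. Citrate cycle and pyruvate entry averaged -1.43 there on the log2 scale relative to vehicle_normal, beside -1.18 to -1.09.

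HB replicate 4 was marked in 7 cases. Cps1 read 1234 there, beside 0.72 to 24.18. Cyp2a12 read 249.2 there, beside 1.17 to 15.89. Fstl1 read 1646 there, beside 5303 to 7152. Glul read 25343 there, beside 8764 to 12662. Onecut2 read 200.5 there, beside 10.74 to 40.4. Pla2g2a read 20870 there, beside 4943 to 7828. Sgo2a read 164.1 there, beside 555.9 to 961.

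HB replicate 5 was marked in 4 cases. C8g read 470.7 there, beside 80.21 to 142.1. Frzb read 5.76 there, beside 32.22 to 48.84. Upp2 read 36.98 there, beside 0.25 to 5.24. Cholesterol and fatty acid synthesis averaged -2.21 there on the log2 scale relative to vehicle_normal, beside -2.9 to -2.67.

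HB replicate 6 was marked in 2 cases. Atf3 read 244.3 there, beside 629.3 to 885.8. Pdk1 read 654.4 there, beside 1642 to 1935.

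vehicle_normal replicate 1 was marked in 1 case. Hey1 read 13.6 there, beside 72.58 to 122.9.

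vehicle_normal replicate 2 was marked in 7 cases. Adamts10 read 480 there, beside 80.49 to 161.7. Atf3 read 73.76 there, beside 157.8 to 206.6. Crp read 10070 there, beside 14167 to 16875. Ghr read 11004 there, beside 13854 to 14826. Myc read 273.6 there, beside 496.1 to 590.1. Sox11 read 47.59 there, beside 89.86 to 115.2. Notch receptors, ligands and targets averaged -0.26 there on the log2 scale relative to vehicle_normal, beside 0.01 to 0.15.

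vehicle_normal replicate 3 was marked in 4 cases. Cd5l read 2300 there, beside 6990 to 12014. Ighm read 514.9 there, beside 3276 to 5485. Speer4cos read 157.5 there, beside 3.02 to 25.11. Upp2 read 19515 there, beside 9044 to 11748.

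vehicle_normal replicate 4 was marked in 1 case. Fzd10 read 24.94 there, beside 0.87 to 6.69.

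vehicle_normal replicate 5 was marked in 9 cases. Aldh1l1 read 3885 there, beside 6739 to 8914. Cps1 read 18008 there, beside 24851 to 28588. Fah read 9940 there, beside 14658 to 16636. Fxyd6 read 49.25 there, beside 2.62 to 13.29. Ptprc read 1742 there, beside 584.7 to 770.6. Selenbp1 read 9290 there, beside 12918 to 14629. Slc38a3 read 9669 there, beside 13965 to 15941. Tryptophan, tyrosine, phenylalanine and histidine breakdown averaged -0.32 there on the log2 scale relative to vehicle_normal, beside -0.02 to 0.12. Granulocyte and mast cell markers averaged 0.94 there on the log2 scale relative to vehicle_normal, beside -0.46 to 0.06.

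vehicle_normal replicate 6 was marked in 6 cases. Cox4i1 read 8980 there, beside 11318 to 12903. Cyp2b9 read 733.4 there, beside 5791 to 13918. Foxc2 read 22.39 there, beside 1.31 to 5.71. Gjb2 read 14755 there, beside 9954 to 10867. Hepatocyte transcription factors averaged -0.16 there on the log2 scale relative to vehicle_normal, beside 0.02 to 0.05. Acute-phase proteins averaged 0.93 there on the log2 scale relative to vehicle_normal, beside -0.38 to 0.01.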

How the results depend on the processing

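Under 27 alternatives the counts of rises and falls stayed within 1.5 times of 5239 and 3248, except when each array was centred on the median of all probe sets, which gave 2393 rises and 5449 falls. Centring on the median of the tested genes, an alternative chosen after seeing the data, gave 3638 and 4252. Leaving out 1 array at a time gave 4942 to 5160 rises and 3144 to 3224 falls. Same-numbered arrays did not deviate together, so the replicate numbers do not pair them (0 of 6 correlated best with their own number). The fit of the 2 groups with the replicate block gave 5199 rises and 3292 falls, against 5340 and 3351 without it. Afp, which did not pass, changed sign to 0.01 over the mean of its probe sets, 0.29 without the arrays with Xist signal, 0.14 without HB replicate 1 and 0.20 without HB replicate 2. Arg2, not called either, changed sign to 0.19 over the mean of its probe sets, 0.13 without vehicle_normal replicate 2 and 0.06 without vehicle_normal replicate 6. Hoxd12 changed sign to 0.01 and 0.19 without HB replicates 1 and 2 and to 0.05 without vehicle_normal replicate 4, and Foxa2 to -0.12 when arrays were centred on the median of all probe sets. Over all fits that leave out 1 array, the lowest values were -0.78 for Afp, -0.41 for Arg2 and -0.41 for Hoxd12. The cause of these changes was not tested. Foxa2 passed without HB replicate 3 or 6, and Gys1 without HB replicate 2. With centring on the median of all probe sets, fewer rises were also counted among imprinted genes (8), TGF-beta and BMP genes (13), Notch genes (7), G1 cyclins (11), replication (17), p53 targets (7), chromatin (25), ribosome biogenesis (10), serine and one-carbon enzymes (5) and MAPK output (10). A stricter filter tests fewer genes and left 11 rises among embryonic regulators, 19 among neuronal and 32 among mitosis genes. Dim probe sets limit the differences of genes near the floor, where the pseudocount sets their size.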
